A study of Mus musculus with 24 samples.

Results

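Non-productive beta rearrangements are the T cell receptor (TCR) beta sequences whose complementarity determining region 3 (CDR3), the junction of the V, D and J segments, could not encode a receptor chain. They were taken from the TRB clonotype tables of 24 mouse tumors as the rows with an entry in the deposited stop codon column and at least 2 reads. This gave 28943 members of 104300 rows with at least 2 reads, and the 75357 rows without that entry, here called the stop mark, served as the productive rows of the same tumors. A further 118243 rows with the stop mark had a single read and were not members.

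The tumors came from 12 female BALB/c mice, aged 7 to 9 weeks per the study's methods, that were inoculated in both flanks with CT26.CL25, a subline of the murine colon cancer line CT26. In the 3 time-matched mice (mice 6, 12 and 14) both tumors were taken 13 days after inoculation without treatment. In the 3 untreated time-separated mice (mice 4, 17 and 19) 1 tumor was excised by surgery and the other was taken 11 days later. In 2 further sets of 3 time-separated mice, decitabine (DAC), a DNA methyltransferase inhibitor, was injected intraperitoneally from 3 days after surgery on 5 consecutive days at 0.5 mg/kg (mice 3, 11 and 20) or 2 mg/kg (mice 7, 10 and 16), and the remaining tumor was taken 4 days after the last dose. The labels number the tumors 1 and 2 without saying which was the early one, so no early-to-late direction was assigned. Libraries were made from RNA of whole tumors, and the tables hold TCR rows only, so the labelled cell type, colon cancer cells, could not be checked against marker genes. Reads per tumor in rows with at least 2 reads ranged from 67735 to 966365 with a median of 220057, and the time-matched libraries were among the deepest, at 404781 to 661180 reads.

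A T cell assembles its beta chain by joining a V, a D and a J segment with random trimming and addition of bases at the junctions, so many joins lose the reading frame. A cell whose first attempt fails can rearrange its other allele, and the failed allele is carried along by a T cell selected for the receptor of the productive one. Out-of-frame sequences are therefore known as a record of recombination before selection on the receptor protein. Transcripts with a premature stop codon are also known to be degraded by nonsense-mediated decay, so RNA shows such alleles at reduced levels.

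The members fell into 3 kinds, and the largest went against the label. Only 6061 members (20.9%) were out of frame, with a CDR3 length that is not a multiple of 3. Another 2929 (10.1%) were in frame and held a stop codon. The remaining 19953 (68.9%) were in frame and held no stop codon, and each of them had exactly 1 undetermined base, written N. No row without the stop mark held an N, an out-of-frame length or a stop codon in the CDR3. The in-frame rows with an N are called N rows below. They were not shown by their letters to be non-productive, and the main results are given for all members and again for rows without an N, an alternative chosen after seeing the data.

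Representative sequences of each kind are shown here because the comparisons turn on them. The first pair, from tumor 1 of mouse 16, is an N row with 2217 reads and the sequence 1 base away with 263851 reads (TRBV13-2 with TRBJ2-5), with the differing position in capitals. The third is the in-frame row with the most reads among those with a stop codon (TRBV12-2 with TRBJ2-2, mouse 16, 4890 reads in tumor 1), with the stop codon in capitals. The fourth is the out-of-frame row with the most reads (TRBV14 with TRBJ2-1, mouse 16, 15643 reads in tumor 1).
N row: tgtgccaNcggtgaggccacccagtacttt
its larger neighbor: tgtgccaGcggtgaggccacccagtacttt
in frame with a stop codon: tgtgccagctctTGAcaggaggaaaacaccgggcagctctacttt
out of frame: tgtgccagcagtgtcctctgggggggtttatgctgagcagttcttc

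Per tumor, the members held 4.98% to 8.15% of the reads, with a median of 6.58%. N rows took 2.15% to 4.65% of the reads of a tumor, out-of-frame rows 1.27% to 4.63%, and rows with a stop codon 0.121% to 1.22%. In bulk RNA, fewer cells with a failed allele and less RNA from it per cell cannot be told apart.

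**Figure D1:**
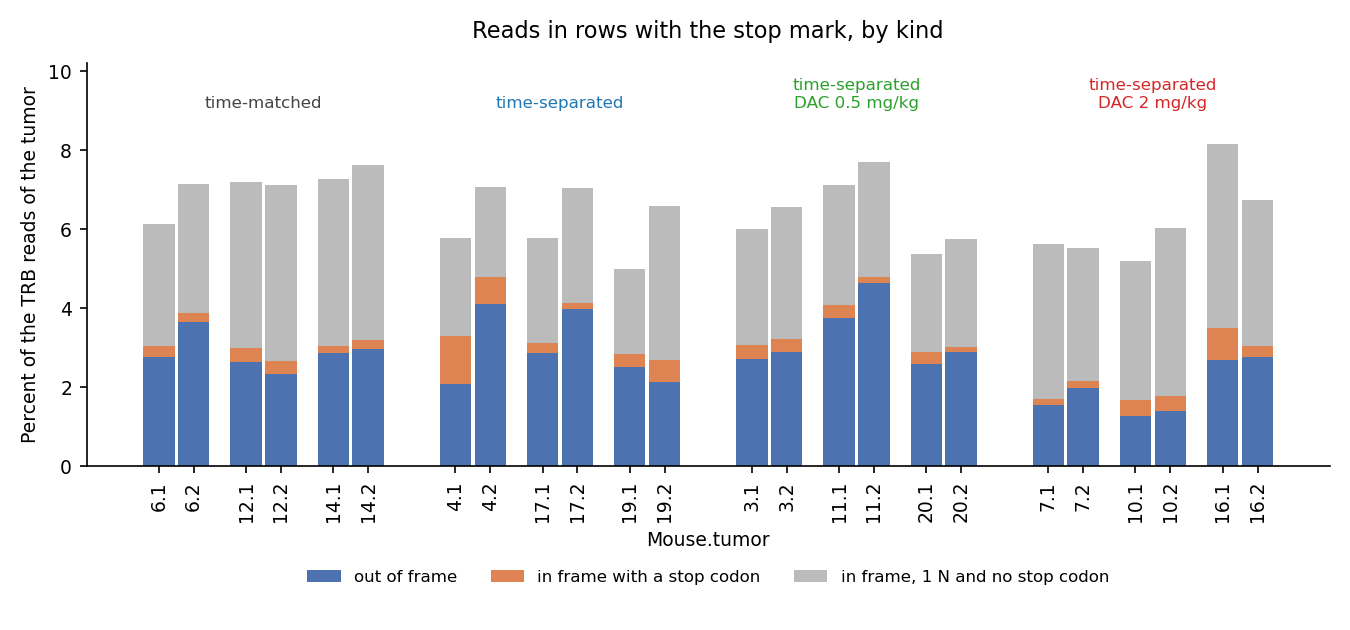
Stacked bars give, for each of the 24 tumors (mouse and tumor number on the x axis, group above), the percent of TRB reads in members, split into out-of-frame rows, in-frame rows with a stop codon and in-frame rows with 1 N and no stop codon. Bar heights lie between 4.98% and 8.15%, and the N rows fill 2.15% to 4.65% of the reads in every tumor.

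A row was called a likely error of sequencing or PCR where it lay 1 base or 1 insertion or deletion from a sequence at least 20 times larger with the same V and J. Of all members, 24140 (83.4%) met this definition. The share was 92.1% for N rows, 74.9% for rows with a stop codon, 58.7% for out-of-frame rows and 48.2% for productive rows. Averaged per mouse, 82.9% ± 2.89 (SD, n = 12 mice) of members against 48.0% ± 7.21 of productive rows were likely errors, a difference of 34.9 ± 5.18 percentage points that was positive in 12 of 12 mice (exact permutation test over mice, flipping signs, adjusted p = 0.000586). For rows without an N the difference was 8.55 ± 3.96 percentage points, again positive in 12 of 12 mice (exact permutation test, adjusted p = 0.000977). Within these rows, 47.5% ± 9.39 of out-of-frame rows and 74.1% ± 4.97 of rows with a stop codon were likely errors, against 48.0% of productive rows. On average, out-of-frame rows without an N were therefore not above productive rows, which was not tested by itself. All tests are two-sided. An unadjusted p of 0.000488 is the smallest that 12 mice can give, and p-values are adjusted over the 6 paired values that compare members with productive rows or kinds with each other.

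The kinds differed in how they departed from their larger neighbor. Out-of-frame rows were likely errors less often than rows with a stop codon, with a difference of -18.8 ± 8.84 percentage points (lower in 12 of 12 mice, exact permutation test, adjusted p = 0.000586). With single-read rows kept, this difference reversed to 18.2 percentage points, and 43.4% of out-of-frame rows and 25.2% of rows with a stop codon then met the definition. It was -26.5 ± 8.98 for rows without an N, -45.7 with a minimum of 5 reads, -30.9 with every library thinned to the smallest and -28.9 with neighbors up to 2 edits away. Of the likely errors among N rows, 16808 (91.4%) differed from the neighbor by the N itself. Of those with a stop codon, 2119 (96.5%) differed by a substitution, and C-to-T (32.2%), G-to-T (28.9%) and T-to-G (24.7%) were the 3 most frequent changes. Only changes that leave a stop codon in the CDR3 could enter this count, and no expected frequencies were computed. Among out-of-frame likely errors, 486 were deletions and 315 were insertions, while 1632 were substitutions and 1127 were N differences from a neighbor that was itself out of frame.

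Many insertions and deletions lay in runs of 1 base. Of these 801 rows, 528 (65.9%) changed a run of at least 5 identical bases in the neighbor, and the base was G in 540 (67.4%). The share of such runs in the neighbors was not computed.

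The largest clone of each tumor had N rows around it. It was accompanied by N rows at 14 to 23 positions of a CDR3 of 30 to 48 bases, and in 0 of 24 tumors at every position. Together these rows held 2.97% to 6.13% of the clone's reads, with a median of 4.01%. The base replaced by N was G in 32.1% of N likely errors against 30.4% of the CDR3 bases of their neighbors, and C in 20.4% against 23.1%. Weighted by reads, G stood at 36.7% against 31.8%.

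After likely errors and rows with an N were removed, 3132 members remained, here called resolved: 2420 out of frame and 712 in frame with a stop codon, with 187476 reads in all. A tumor had 22 to 195 resolved rows (median 135), which took 1.16% to 4.11% of its reads. Of the resolved out-of-frame rows, 54.9% had 1 base and 45.1% had 2 bases more than a multiple of 3. Just inside the read minimum were 920 resolved rows with 2 reads and 253 with 3 reads. Within the error definition, 96 out-of-frame and 107 stop-codon rows were kept with a neighbor 15 to 20 times larger, and 81 and 92 rows were removed with one 20 to 25 times larger. A neighbor of any larger size was absent for 1817 resolved out-of-frame rows and for 155 of the rows with a stop codon.

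Median sizes of out-of-frame and productive rows lay close together, and rows with a stop codon lay near the minimum of 2 reads. The largest out-of-frame row had 15643 reads and the largest productive row 325908. The median size of a resolved out-of-frame row was 13.3 ± 5.38 reads (SD, n = 12 mice, lowest 7.50, highest 28.5), against 14 ± 2.69 for productive rows (10.5 to 20), so the ranges overlapped throughout. For resolved rows with a stop codon the median was 2.04 ± 0.144 reads, and no mouse exceeded 2.5. Of these rows, 557 still had a neighbor 1 to 20 times larger (median 2 reads), and 155 had no larger neighbor (median 4). Among resolved out-of-frame rows, 603 had such a neighbor (median 2 reads) and 1817 had none (median 18). The part of these rows in the size contrast between kinds was not tested. At least 100 reads were reached by 6.86% of out-of-frame, 1.26% of stop-codon and 7.39% of productive rows. As designed, with all kinds together, the median of 3.08 reads was lower than the productive median by 2.08 ± 0.55 on the log2 scale (lower in 12 of 12 mice, exact permutation test, adjusted p = 0.000586). Among rows without an N the difference was -0.78 ± 0.55 (lower in 11 of 12 mice, exact permutation test, adjusted p = 0.00117). It was -0.26 with a minimum of 5 reads, -0.75 with every library thinned to the smallest, -0.80 with likely errors kept and -0.86 with neighbors at least 5 times larger. For out-of-frame rows alone it was -0.16 ± 0.63, higher in 2 of 12 mice, and did not pass the test (exact permutation test, adjusted p = 0.426), which does not show that the sizes were equal.

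**Figure D2:**
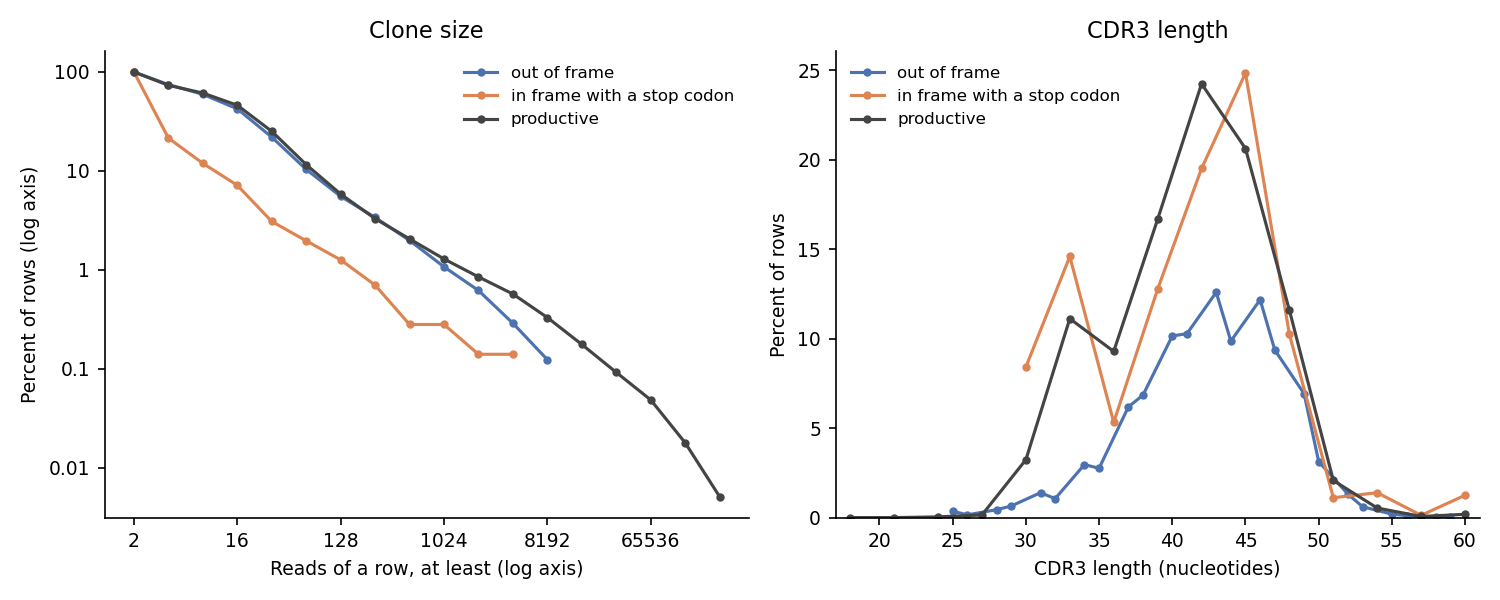
Left, percent of resolved rows with at least the number of reads on the x axis (both axes logarithmic) for out-of-frame rows, in-frame rows with a stop codon and productive rows of all 24 tumors; right, percent of rows by CDR3 length up to 60 nucleotides, with 3 out-of-frame and 2 stop-codon rows beyond that not drawn. The out-of-frame and productive size curves lie together up to 512 reads, where they are at 1.98% and 2.06%, and the stop-codon curve lies below both from 4 reads on.

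Of the resolved rows with a stop codon, 9 had at least 100 reads, and they were 6 distinct sequences. The sequence with TRBV12-2 shown above had 4890 reads in tumor 1 and 308 in tumor 2 of mouse 16. In mouse 4, a sequence joining TRBV15 to TRBJ2-7 had 1106 and 385 reads. Of the 9 rows, 5 used a segment of the superantigen list described below, and 4 of these are both sequences named here, each counted in both tumors; over all resolved rows with a stop codon the list held 8.18% ± 9.41 (SD, n = 12 mice). TAG was the first stop codon in 417 of the 712 resolved rows (58.6%), TGA in 185 and TAA in 110 (15.4%), and the first stop stood at codon 5 of the CDR3 in 171 rows.

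Members had longer CDR3 sequences than productive rows. The mean was 42.3 ± 0.83 nucleotides against 41.1 ± 0.62, a difference of 1.15 ± 0.49 that was positive in 12 of 12 mice (exact permutation test, adjusted p = 0.000586). In rows without an N it was 1.24 ± 0.59 nucleotides (11 of 12 mice, exact permutation test, adjusted p = 0.00117). It was 0.74 with likely errors kept, 0.70 with neighbors at least 5 times larger, 0.76 with neighbors up to 2 edits away and 0.70 with every library thinned to the smallest. Out-of-frame rows alone were longer by 1.64 nucleotides (12 of 12 mice, exact permutation test, adjusted p = 0.000732), while rows with a stop codon differed by 0.23 (7 of 12 mice higher, exact permutation test, adjusted p = 0.653). The spread of lengths within a tumor was 5.92 ± 1.92 nucleotides (SD) for resolved out-of-frame rows and 5.27 ± 0.55 for productive rows. The former included 3 rows of 139, 170 and 179 nucleotides, while no productive row exceeded 60, and the part of these 3 rows in the spread was not tested. The 5th to 95th percentiles ran from 34 to 50 nucleotides for resolved out-of-frame and from 33 to 48 for productive rows.

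V segment usage differed between members and productive rows in most segments tested. Shares are percent of rows after likely errors were removed, averaged over both tumors of a mouse, and 0.5 row was added to each count before logarithms. Of 21 segments with at least 5 rows a tumor on average, 12 (57.1%) passed an adjusted p of 0.05, 6 (28.6%) higher and 6 (28.6%) lower in members. Among rows without an N, 14 segments (66.7%) passed, 9 (42.9%) higher and 5 (23.8%) lower; the 9 include TRBV8, whose direction rests on the 0.5 row added.

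TRBV24 (Vβ17), known as non-functional in several inbred strains, had the largest ratio of the 21 segments. It took 4.45% ± 2.19 of member rows and 0.157% ± 0.067 of productive rows, a log2 ratio of 4.68 ± 0.88 (12 of 12 mice, exact permutation test, adjusted p = 0.00171) that was 5.24 ± 0.86 in rows without an N. Among resolved rows its share ranged from 2.84% (mouse 16) over a median of 6.31% to 14.4% (mouse 12), and among productive rows from 0.0789% to 0.249%, with no overlap. By kind, it took 8.37% ± 4.21 of resolved out-of-frame rows (3.51% to 18.8% by mouse). Among resolved rows with a stop codon it took 0.517% ± 0.816 (0 to 2.27% by mouse, median 0), which overlapped the productive rows. The full transcript sequence of the rows carried a stop codon upstream of the CDR3. An in-frame TAG 2 codons before the CDR3 was present in 190 of 198 resolved TRBV24 rows whose sequence reached 30 bases upstream, and in 57 of 57 such rows without the stop mark. In rows of all other TRBV segments, resolved and productive, an in-frame stop codon in those 30 bases was found in 480 of 39909 (1.20%). The deposited mark thus covered the CDR3 but not the V segment, and 65 rows without it (at most 92 reads each) used TRBV24. The largest TRBV24 row, from tumor 1 of mouse 12 with 7138 reads, is shown with 30 bases before the CDR3 and the upstream stop codon in capitals:
TRBV24 with TRBJ1-3: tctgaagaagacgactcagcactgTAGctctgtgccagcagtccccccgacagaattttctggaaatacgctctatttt

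The superantigen list comprised TRBV12-1 and TRBV12-2 (Vβ5), TRBV15 (Vβ12), TRBV16 (Vβ11) and TRBV26 (Vβ3). In BALB/c mice, T cells with these V regions are known to be deleted in the thymus by superantigens of endogenous mammary tumor proviruses, so productive receptors with them are scarce. The list took 10.5% ± 3.47 of member rows and 3.24% ± 1.43 of productive rows, a log2 ratio of 1.67 ± 0.58 (12 of 12 mice, exact permutation test, adjusted p = 0.000586). In rows without an N the log2 ratio was 2.11 ± 0.59 (12 of 12 mice, exact permutation test, adjusted p = 0.000977). Resolved rows ranged from 6.27% over a median of 14.2% to 21.6% by mouse, and productive rows from 2.00% over 2.87% to 7.37%, so the classes overlapped across mice. The log2 ratio was 2.27 ± 0.66 for out-of-frame rows (12 of 12 mice, exact permutation test, adjusted p = 0.000732) and 1.14 ± 1.41 for rows with a stop codon (10 of 12 mice, exact permutation test, adjusted p = 0.0275).

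Within the list, TRBV12-1 rose by 2.73 ± 1.06 on the log2 scale and TRBV12-2 by 2.72 ± 1.32 (each in 12 of 12 mice, exact permutation test, adjusted p = 0.00171). TRBV12-1 was at 2.39% ± 1.43 of rows without an N and 0.245% ± 0.079 of productive rows, and mouse 16 had none in the former, so that its ratio rests on the 0.5 row added. TRBV12-2 was at 2.49% ± 1.64 and 0.287% ± 0.171, and mouse 7 had none among productive rows. TRBV15 was higher by 1.77 ± 0.72 (12 of 12 mice, exact permutation test, adjusted p = 0.00171), but did not pass with reads counted (1.88, exact permutation test, adjusted p = 0.0679). Its productive share was 0.459% to 0.855% in all mice but mouse 14, where it was 4.81%. TRBV16 had a log2 ratio of 0.63 ± 0.95 and did not pass (8 of 12 mice higher, exact permutation test, adjusted p = 0.0749), though it did without mouse 20 (0.78, exact permutation test, adjusted p = 0.0261), and without rows holding an N it was 1.07 ± 0.96 (11 of 12 mice, exact permutation test, adjusted p = 0.00839). TRBV16 passed under 10 of the 14 alternatives run other than leaving out a mouse, at 0.55 to 1.34, edgeR among them (0.85, adjusted p = 0.000148), and was at 0.055 with likely errors kept. TRBV26 fell under the row filter and was not tested, with 36 resolved rows from 10 mice against 44 productive rows from 12 mice.

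**Figure D3:**
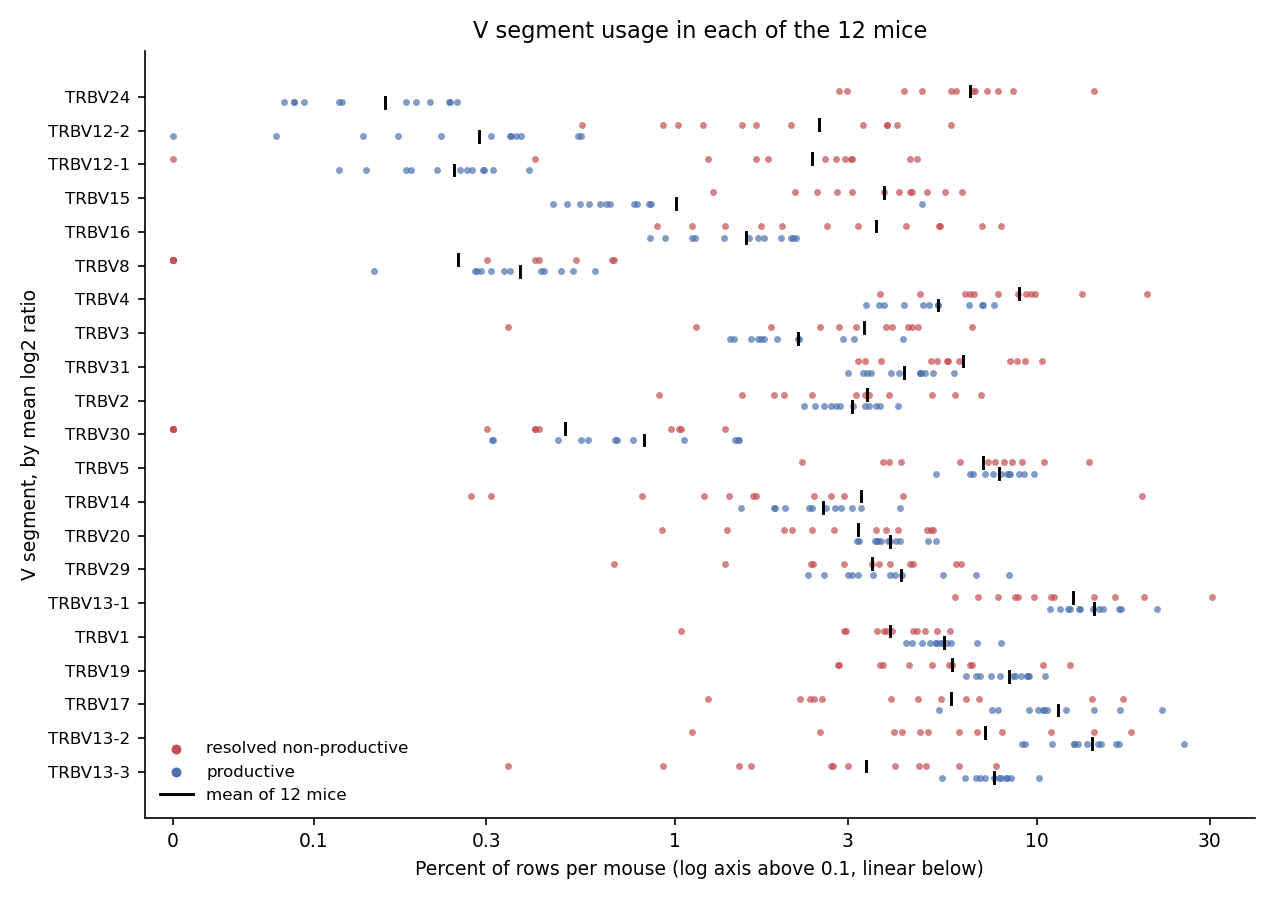
For each of the 21 V segments tested, points give the percent of rows in each of the 12 mice for resolved non-productive (red) and productive (blue) rows, and black ticks the mean; the x axis is logarithmic above 0.1 and linear below. For TRBV24 the points of the 2 classes do not overlap (2.84% to 14.4% against 0.0789% to 0.249%), and for TRBV13-3 the resolved rows lie lower (0.345% to 7.70% against 5.45% to 10.1%).

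Among the other segments, TRBV3 (0.58 ± 0.69, adjusted p = 0.0256) and TRBV4 (0.46 ± 0.40, adjusted p = 0.00615) were higher in members on the log2 scale (exact permutation test, 8 and 10 of 12 mice). TRBV3 no longer passed when mouse 4, 10, 11, 16 or 17 was left out (exact permutation test, adjusted p = 0.0513 each time), nor with a minimum of 5 reads (0.64), single-read rows kept (0.33), out-of-frame rows alone (0.62) or reads counted (0.37), and its log2 ratio was -0.14 when likely errors were kept. TRBV4 did not pass with single-read rows kept (0.11), likely errors kept (0.15) or reads counted (0.012). TRBV31 had a log2 ratio of 0.25 as designed (exact permutation test, adjusted p = 0.230) and of 0.53 ± 0.62 without rows holding an N (exact permutation test, adjusted p = 0.0205). The segments lower in members were TRBV13-3 (-0.69 ± 0.48), TRBV13-2 (-0.63 ± 0.34), TRBV17 (-0.58 ± 0.50), TRBV19 (-0.50 ± 0.37), TRBV1 (-0.43 ± 0.40) and TRBV20 (-0.38 ± 0.42), with adjusted p-values of 0.00171 to 0.0242 (exact permutation test). In these 6 segments 10 to 12 of 12 mice were lower. TRBV1 did not pass with likely errors kept (-0.25) or for out-of-frame rows alone (-0.32), and was at 0.13 with single-read rows kept and at 0.37 with reads counted in place of rows, and TRBV17 at 0.17 among rows with a stop codon alone. TRBV19 did not pass with single-read rows kept (-0.044), likely errors kept (-0.13), reads counted (-0.090) or rows with a stop codon alone (-0.58), nor TRBV13-2 among the latter (-0.48), nor TRBV17 with every library thinned to the smallest (-0.26). Among rows without an N, TRBV13-3, TRBV13-2 and TRBV17 were lower by more than as designed, at -1.25 ± 0.80, -1.21 ± 0.86 and -1.18 ± 0.72. TRBV3 (0.60), TRBV4 (0.68), TRBV1 (-0.52) and TRBV19 (-0.56) passed there too (exact permutation test, adjusted p = 0.00228 to 0.0469), whereas TRBV20, at -0.25 ± 0.58, did not pass (exact permutation test, adjusted p = 0.191). TRBV20 also failed with a minimum of 5 reads (-0.48), single-read rows kept (-0.18), neighbors at least 5 times larger (-0.48), out-of-frame rows alone (-0.12), rows with a stop codon alone (-0.29), reads counted (-0.35), every library thinned (-0.26) and 1 row added (-0.25).

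Of a list of 15 V and J segments known as pseudogenes or open reading frames, 12 had no row with at least 2 reads. TRBV29, listed as a pseudogene in RefSeq but not on that list, was in regular use, with 1615 productive rows. It took 3.85% ± 1.90 of member and 4.21% ± 1.81 of productive rows and did not pass (log2 ratio -0.30, exact permutation test, adjusted p = 0.218). An in-frame stop codon in the 30 bases before the CDR3 was found in 10 of 1572 productive TRBV29 rows. TRBV8, a pseudogene in RefSeq (GRCm38.p6), had 7 resolved rows from 6 mice and 137 productive rows from 12 mice, TRBV10 had 10 and 54, and TRBV21 had 6 and 24. For TRBV8 the log2 ratio was 0.20 as designed (exact permutation test, adjusted p = 0.259) and 0.81 ± 0.53 without rows holding an N (exact permutation test, adjusted p = 0.00228). The second value went against the shares, 0.25% of resolved and 0.371% of productive rows, since the 0.5 row added weighs more in the smaller class. By edgeR on row counts without likely errors, rows with an N included, TRBV8 was lower in members, at -1.17 on the log2 scale (adjusted p = 0.0168). TRBV23, also under the row filter, had 21 resolved rows from 10 mice and 12 productive rows from 7 mice.

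J segment usage differed in few segments. Of 12 tested, 1 (8.33%) passed, and without rows holding an N 2 (16.7%) passed. TRBJ1-6 took 1.4% ± 0.95 of member rows and 3.44% ± 1.57 of productive rows, a log2 ratio of -1.22 ± 0.88 (10 of 12 mice lower, exact permutation test, adjusted p = 0.0234). After rows with an N were left out, 15 member rows against 1376 productive rows used it, at 0.385% ± 0.565, and the ratio was -2.17 ± 0.93 (12 of 12 mice lower, exact permutation test, adjusted p = 0.00586). By mouse, these shares ran from 0 to 1.5% in resolved and from 2.09% to 7.93% in productive rows, without overlap. Among rows with a stop codon alone the log2 ratio of TRBJ1-6 was 0.050 (exact permutation test, adjusted p = 0.904), and with likely errors kept it was -0.89 (exact permutation test, adjusted p = 0.0586). TRBJ1-5 had a log2 ratio of 0.20 ± 0.45 as designed (exact permutation test, adjusted p = 0.321) and 0.54 ± 0.49 without rows holding an N (11 of 12 mice, exact permutation test, adjusted p = 0.0117). In the shares themselves, without the 0.5 row added, mice 6, 12 and 14 were lower in resolved rows and the other mice higher. The part of the added 0.5 row in the second ratio was not tested. By edgeR, rows with an N included, TRBJ1-5 was at 0.094 (adjusted p = 0.734). The TRBJ2 cluster, the downstream group of J segments, took 71.9% ± 4.92 of member and 70.3% ± 4.09 of productive rows, a difference of 1.61 ± 3.18 percentage points that did not pass (10 of 12 mice higher, exact permutation test, adjusted p = 0.111), though it did without mouse 6, at 2.31 (exact permutation test, adjusted p = 0.00781). Rows with a stop codon were 11.7 percentage points above productive rows (12 of 12 mice, exact permutation test, adjusted p = 0.000732), and out-of-frame rows lay at -2.21 percentage points (2 of 12 mice higher, exact permutation test, adjusted p = 0.130); the difference between these kinds was not tested. In rows without an N the TRBJ2 difference was 1.16 ± 4.51 percentage points (8 of 12 mice higher, exact permutation test, adjusted p = 0.396).

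Each mouse had its own leading non-productive sequence, taken as the one with the highest mean share of member reads that was not a likely error. All 12 were out of frame, held no N and were found in both tumors of the mouse, and 11 were found in 1 mouse alone. The sequences of mice 6 and 11 are shown because they had the highest shares of all reads.
mouse 6, TRBV5 with TRBJ1-1: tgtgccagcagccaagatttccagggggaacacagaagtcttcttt
mouse 11, TRBV19 with TRBJ2-5: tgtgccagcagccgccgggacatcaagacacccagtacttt
The sequence of mouse 6 held 11254 reads or 1.80% of tumor 1 and 9914 reads or 2.45% of tumor 2, at ranks 5 and 3 among all TRB sequences there. It was also found in tumor 1 of mouse 3 with 3 reads. The sequence of mouse 11 held 1.80% and 2.79% of the reads, at ranks 12 and 8. The out-of-frame row of mouse 16 shown above held 1.62% of tumor 1, at rank 6, and 0.850% of tumor 2. The TRBV24 row shown above led mouse 12, with 1.31% and 0.959%. In mouse 20 the leading sequence (TRBV13-3 with TRBJ2-4) held 0.070% (95% exact Clopper-Pearson interval 0.057% to 0.085%) of tumor 1 and 0.731% (0.680% to 0.785%) of tumor 2. Such intervals cover counting error only.

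The balance between tumors differed by mouse. In the 3 time-matched mice the share in tumor 2 over tumor 1 was 0.44 (mouse 6), -0.45 (mouse 12) and 0.29 (mouse 14) on the log2 scale. In the time-separated mice it ran from -0.93 (mouse 16) to 3.38 (mouse 20), and 7 of these 9 mice differed by over 2-fold, each with the higher share in tumor 2. These values describe 1 sequence per mouse and were not tested. In mice 3 and 14 the leading sequence lay 1 insertion or deletion from a larger sequence, and the part of such changes in their values was not tested. In the other 10 mice no neighbor exceeded 0.0407 times the leading sequence.

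**Figure D4:**
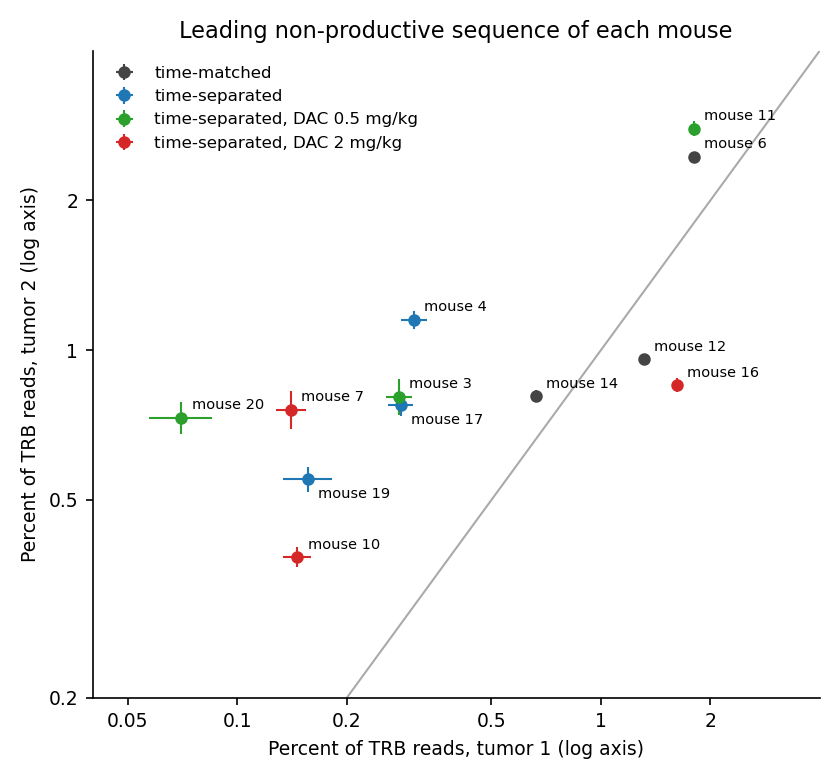
Percent of TRB reads held by the leading non-productive sequence of each mouse in tumor 1 (x axis) and tumor 2 (y axis), both axes logarithmic, colored by group; bars are 95% exact binomial intervals and the grey line marks equal shares. The 3 time-matched mice lie within 0.45 (log2) of the line, and mouse 20 lies farthest from it, at 3.38.

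Few resolved sequences were found in more than 1 mouse. Of 2156 resolved out-of-frame V, J and CDR3 combinations, 9 (0.417%) were found in at least 2 mice and 0 in 3 or more. Of 666 with a stop codon, 2 were found in 2 mice. Of 33788 productive combinations, 614 (1.82%) were found in at least 2 and 134 (0.397%) in at least 3 mice. The classes differ in number and size, so these shares are a description. Of the 11 shared resolved sequences, 6 joined TRBV13-1 to TRBJ2-5 around a run of at least 8 identical bases, which 39 of all 2822 resolved sequences did, and 291 (10.3%) held such a run in any V and J. The largest is shown with a run of 9 G; it had 1822 and 2343 reads in mouse 12 and 66 and 145 reads in mouse 11. Another of these had 23 reads in tumor 2 of mouse 17 and 41 and 245 reads in mouse 19.
shared by mice 11 and 12: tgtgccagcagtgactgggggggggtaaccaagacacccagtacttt

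The study's design compared tumors taken on the same day with tumors taken 11 days apart. The share of reads in members was 7.08% ± 0.41 (SD, n = 3) in time-matched and 6.21% ± 0.36 in untreated time-separated mice (exact permutation over mice, p = 0.1, which is also the lowest p for groups of 3). By tumor, values ran from 6.14% to 7.62% and from 4.98% to 7.08%, so they overlapped. The libraries also differed in depth, with 404781 to 661180 reads in time-matched and 102946 to 220343 in untreated time-separated tumors, and with every library thinned to the smallest the shares were 6.59% ± 0.44 and 5.86% ± 0.25 (exact permutation test, p = 0.1). Against all 9 time-separated mice, at 6.28% ± 0.74, p was 0.123 (exact permutation test). When rows with an N were left out the order reversed, to 3.00% ± 0.32 in time-matched and 3.42% ± 0.64 in untreated time-separated mice (exact permutation test, p = 0.4). Between untreated mice and those given 0.5 mg/kg (6.42% ± 0.93) or 2 mg/kg decitabine (6.21% ± 1.07), no difference was detected (exact permutation test, p = 0.979). Each mouse's value averages both tumors, and 1 of them was excised before the first dose. Resolved rows held 2.91% ± 0.59, 2.98% ± 0.68 and 1.80% ± 0.76 of reads in these 3 groups. With likely errors also taken out of the read total, no difference between the 3 groups was detected for resolved rows (exact permutation test, p = 0.171).

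The overlap of non-productive reads between both tumors of a mouse was higher in time-matched mice in these samples, within what 3 mice can test. It was measured as the percent of reads in sequences found in both tumors, after thinning each tumor to 1251 member reads outside likely errors. The time-matched mice had 84.2%, 89.0% and 82.5% (mice 6, 12 and 14). The untreated time-separated mice had 54.6%, 81.5% and 34.2% (mice 4, 17 and 19), all below the former. The difference was 28.5 percentage points, 85.3% ± 3.35 against 56.8% ± 23.7 (exact permutation test, p = 0.1). It was 17.2 without mouse 19 and 40.9 without mouse 17. The 0.5 mg/kg mice had 68.1%, 82.4% and 61.7% (mice 3, 11 and 20), and the 2 mg/kg mice 61.9%, 56.7% and 89.2% (mice 7, 10 and 16), so the highest value of all was in mouse 16. Each value is the mean of tumors 1 and 2. In time-separated mice these were farthest apart in mouse 7 (36.9% and 86.9%) and closest in mouse 16 (90.8% and 87.6%). Among time-matched mice they were farthest apart in mouse 14 (80.3% and 84.8%). Against all 9 time-separated mice, at 65.6% ± 17.0, p was 0.0773 (exact permutation test), and after adjustment over the 5 group comparisons the 4 involving time-matched mice were at 0.153. This comparison passed an unadjusted 0.05 when mouse 16 was left out (22.6 percentage points, exact permutation test, p = 0.0424) and when likely errors were kept (18.2, exact permutation test, p = 0.0273). Productive rows thinned to the same number of reads had 89.4% ± 2.87 in time-matched and 67.1% ± 13.1 in untreated time-separated mice. In 11 of 12 mice the overlap was lower for members than for productive rows, by -8.03 ± 9.62 percentage points on average, with mouse 11 as the exception.

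**Figure D5:**
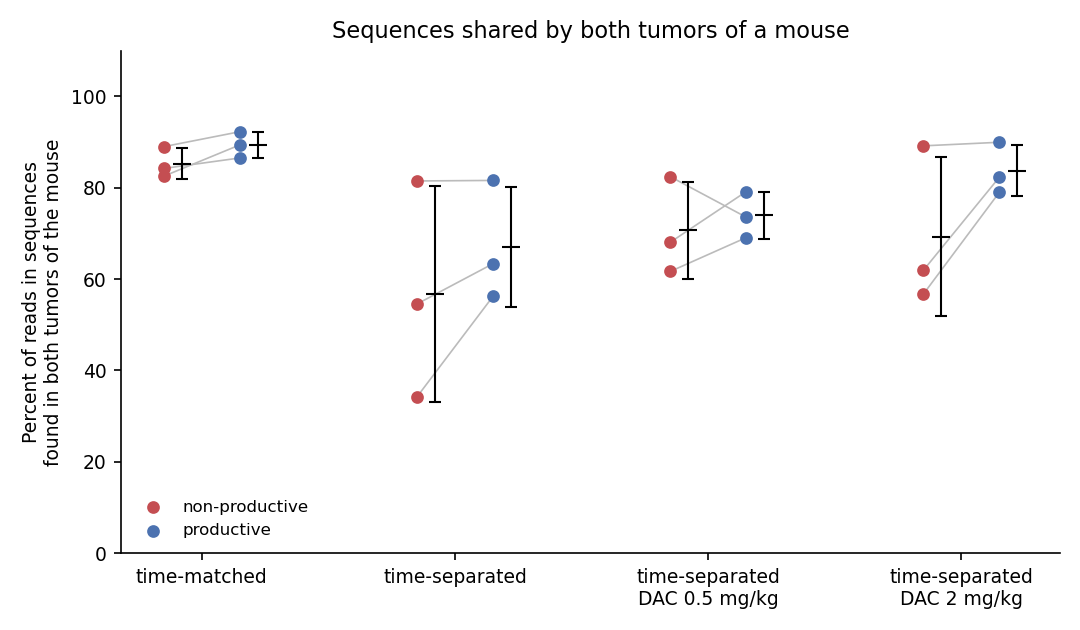
Percent of reads in sequences found in both tumors of a mouse, for non-productive (red) and productive (blue) rows thinned to 1251 reads a tumor; each point is a mouse, grey lines join its values, and black bars give the group mean ± SD (n = 3). Non-productive values of the time-matched mice lie at 82.5% to 89.0% and those of untreated time-separated mice at 34.2% to 81.5%.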

How the data were processed

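TCR libraries of whole-tumor RNA were made with SMART-Seq Mouse TCR (with UMIs) and called with Cogent NGS Immune Profiler v2.0, per the study's methods; the germline reference is not given in the sources used here. The deposited TRB tables give 1 row per clonotype with a read count, not normalized, and how molecular identifiers entered that count is not stated, so counts may include PCR copies. The TRA tables were not used. A member has an entry in the stop codon column and at least 2 reads. Likely errors lay within 1 edit (edlib 1.3.9.post1) of a sequence at least 20 times larger with the same V and J. The members, segment lists and named-item rule (the 10 largest segment ratios past an adjusted p of 0.05, both segment lists, the leading sequence of each mouse, the 3 sequences in most mice, the 3 likely errors with most reads) were chosen with earlier results of these data known; TRBV1, TRBV20, TRBV23, TRBV29, TRBV31, TRBJ1-5 and the rows with a stop codon of at least 100 reads fall outside that rule and were named after their values were seen.

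Both tumors of a mouse were averaged, so the mouse was the replicate (12 in all, 3 a group). Paired values were tested by exact sign-flip permutation over mice and groups by exact permutation, with Benjamini-Hochberg adjustment over 6 paired values, 21 V or 12 J segments, or 5 group comparisons. Overlap used 20 seeded draws. The tests were checked on simulated data. Some sequences that the rule names are not reported here. Alternatives included edgeR 4.0.16 (R 4.3.3) on row counts with the tumor as a block.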

Additional observations from a re-analysis of the deposited data

Results flagged for a closer look

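For 9 measures of the members, the 6 tumors of each of the 4 groups were checked for a sample far from the others, 36 sets in all, of which chance alone sets apart about 1 in 20; 2 were found. The share of reads in members was 6.14% in tumor 1 of mouse 6, the lowest of the time-matched tumors, with the next at 7.11% and the highest at 7.62%. Likely errors made up 78.8% of members in tumor 1 of mouse 7, the lowest of the 6 tumors, treated or excised before treatment, of the 2 mg/kg decitabine mice, with the next at 86.3% and the highest at 89.1%. In 12 comparisons of the paired values between groups, none passed after adjustment for all members (exact permutation test, smallest adjusted p = 0.3) or for rows without an N (exact permutation test, smallest adjusted p = 0.129).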

How the results depend on the processing

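Higher likely error, CDR3 length and superantigen list values in members kept their direction under all alternatives run. All passed except length among rows with a stop codon alone (0.23 nucleotides). The likely error difference ran from 7.75 (out-of-frame rows) to 47.8 percentage points (minimum of 5 reads). Out-of-frame rows without an N were at 47.5% against 48.0% of productive rows. The length difference ran up to 1.64 nucleotides, and the superantigen list log2 ratio from 0.85 (likely errors kept) to 3.32 (reads counted). With single-read rows kept, the likely error difference between kinds reversed to 18.2 percentage points, and the size ratio was 0 since both medians were then 1 read. The size ratio was -0.16 for out-of-frame rows alone. The TRBJ2 difference was -0.037 percentage points with a minimum of 5 reads, -0.061 with neighbors up to 2 edits away, -2.21 for out-of-frame rows, 11.7 for rows with a stop codon and -10.6 with reads counted. It ran from 1.24 to 2.31 as each mouse was left out.

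The count of V segments passing was 12 as designed, 15 by edgeR, 7 with reads counted and 42 of 51 with no filter on segments. How many of the ratios with no filter rest on the 0.5 row added was not counted. The count of J segments, 1 as designed and by edgeR, was 2 with a minimum of 5 reads, with single-read rows, with neighbors at least 5 times larger, for out-of-frame rows, with 1 row added and without N. It was 0 with likely errors kept, 3 with reads counted and 4 of 15 with no filter, and 1 to 2 as each mouse was left out. Among single segments, TRBV1 reversed to 0.13 (single-read rows) and 0.37 (reads counted), TRBV3 to -0.14 (likely errors kept), and TRBV17 to 0.17 and TRBJ1-6 to 0.050 (rows with a stop codon alone).

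The read share of time-matched minus untreated time-separated mice reversed to -0.25 percentage points with single-read rows, -0.67 without likely errors, -0.073 for out-of-frame rows, -0.27 for rows with a stop codon, -0.42 without N and -0.65 without N and likely errors. Against all time-separated mice it reversed to -0.29 without likely errors, -0.13 for rows with a stop codon, -0.030 without N and -0.28 without both. The overlap difference reversed for rows with a stop codon alone, to -17.1 against untreated and -11.1 against all time-separated mice. Against all of them it was 18.2 with likely errors kept (exact permutation test, p = 0.0273) and 15.8 to 22.6 as each mouse was left out. For these reversals and for the moved counts of segments the cause was not tested. No paired analysis was possible because the groups share no mouse; comparisons of members with productive rows were paired within tumors. With 3 mice a group and 22 to 195 resolved rows a tumor, small differences between groups were not detectable.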

Other observations

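No D segment was assigned in 21.6% ± 5.11 (SD, n = 12 mice) of resolved member rows and 22.9% ± 2.76 of productive rows. Among members, 18 carried a V or J name of the alpha chain, and 7 of these were not likely errors. In 199 member rows the V, J and CDR3 repeated those of another row of the same table. The 10 largest resolved rows of a tumor held 39.2% to 93.9% of its resolved reads (median 81.8%), and the 10 largest productive rows held 30.9% to 88.1% of the productive reads (median 67.4%).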
